A study of Mus musculus with 4 samples.

Results

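YAP and SRF responsive genes were read in poly(A) RNA sequencing of mouse embryonic stem cells. The set holds 10 genes, chosen by name from the 22266 genes of the expression table, and was proposed as reporters of cell density and cytoskeletal tension in culture. It comprises Yap1 and Tead4, the YAP and TEAD targets Ccn1, Ccn2, Amotl2 and Ankrd1, the transcription factor gene Srf, and the SRF targets Actb, Tagln and Acta2. No value for density or tension was among the data used here. The cells are the female line PGK12.1 with both Cbx2 alleles floxed and HaloTag-bearing (CBX2fl/fl-HaloTag), grown on gelatin in serum with leukemia inhibitory factor. In the EtOH group (n = 2), labelled day 0 and genotype wildtype, the cells received ethanol. In the OHT group (n = 2), labelled day 2 and genotype knockout, they received 1.0 µM 4-hydroxytamoxifen for 48 hours to delete Cbx2, which encodes a chromodomain subunit of Polycomb repressive complex 1. The recombinase is not given in the sources used here, and no library combined 4-hydroxytamoxifen with intact Cbx2, so deletion, drug and culture time cannot be told apart. Every library is labelled batch 2. Nothing in the labels makes the replicates separate cultures, so a p-value here speaks only of the spread among these samples, which may be technical.

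YAP, encoded by Yap1, is a transcriptional coactivator that the Hippo kinases LATS1 and LATS2 keep in the cytoplasm of crowded or rounded cells. In spread cells under tension it enters the nucleus and acts through the DNA-binding TEAD proteins. Serum response factor, SRF, binds the CArG box and is driven by myocardin-related cofactors that actin monomers hold back, so that its targets, many of them actin and actin-binding genes, follow actin polymerisation. TEAD4 is also known for setting up the trophectoderm of the early embryo, and YAP is expressed in embryonic stem cells.

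None of the members passed the test for a difference between OHT and EtOH. Of the 10, 8 reached a mean of 1 TPM (a share of all transcripts corrected for transcript length and scaled to the same total in each library) over the 4 libraries and were tested with limma on log2(TPM + 1), and Ankrd1 and Acta2 did not reach it. At a Benjamini-Hochberg adjusted p under 0.05 over 12029 genes, 0 of the 8 passed, against 5 of all genes tested (0.0416%). At an unadjusted p under 0.05 stood 2 of the 8, Actb and Ccn2, both lower with OHT, against 10.5% of all genes in either direction and 4.46% lower. For 3 of the 8, Actb, Ccn2 and Srf, the OHT pair lay wholly below the EtOH pair, and for none wholly above. Over all genes tested, 42.4% did not overlap, 19.4% of all genes lying below and 23.1% above, so the share of members without overlap is close to the background. The median log2 difference of the 8 was 0.06, beside 0.02 for all genes tested. Taken singly against the EtOH mean, OHT replicate 1 gave -0.17 and OHT replicate 2 gave 0.28, and the same medians over all genes were -0.09 and 0.14.

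TPM keeps no depth, so the depth of each library is unknown. Cbx2 itself read 2.29 and 2.71 TPM with EtOH against 0.749 and 1.14 TPM with OHT, below the controls in both libraries (log2 difference -0.85, SE 0.19, adjusted p = 0.265). The OHT libraries differed from each other more than the EtOH libraries did, with an SD over genes of the log2 difference of 0.35 against 0.18. The gap between the OHT libraries followed transcript length over 12016 genes (Spearman correlation 0.59), as did the gap between the EtOH libraries (0.35), where genes are no independent replicates. Embryonic stem cell markers were all 8 expressed, with summed TPM of 9318 and 9261 with EtOH and 12256 and 10989 with OHT. The largest part was Dppa5a, with 4733 and 4612 TPM with EtOH against 7089 and 5623 TPM with OHT. For 7 of the 8 the OHT pair lay wholly above the EtOH pair, against 23.1% of all genes tested. Sox2 overlapped (log2 difference -0.03), and none of the 8 passed by limma (smallest adjusted p = 0.330). Pou5f1, a core pluripotency factor, read from 1856 to 2229 TPM over the 4 libraries.

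**Figure D1:**
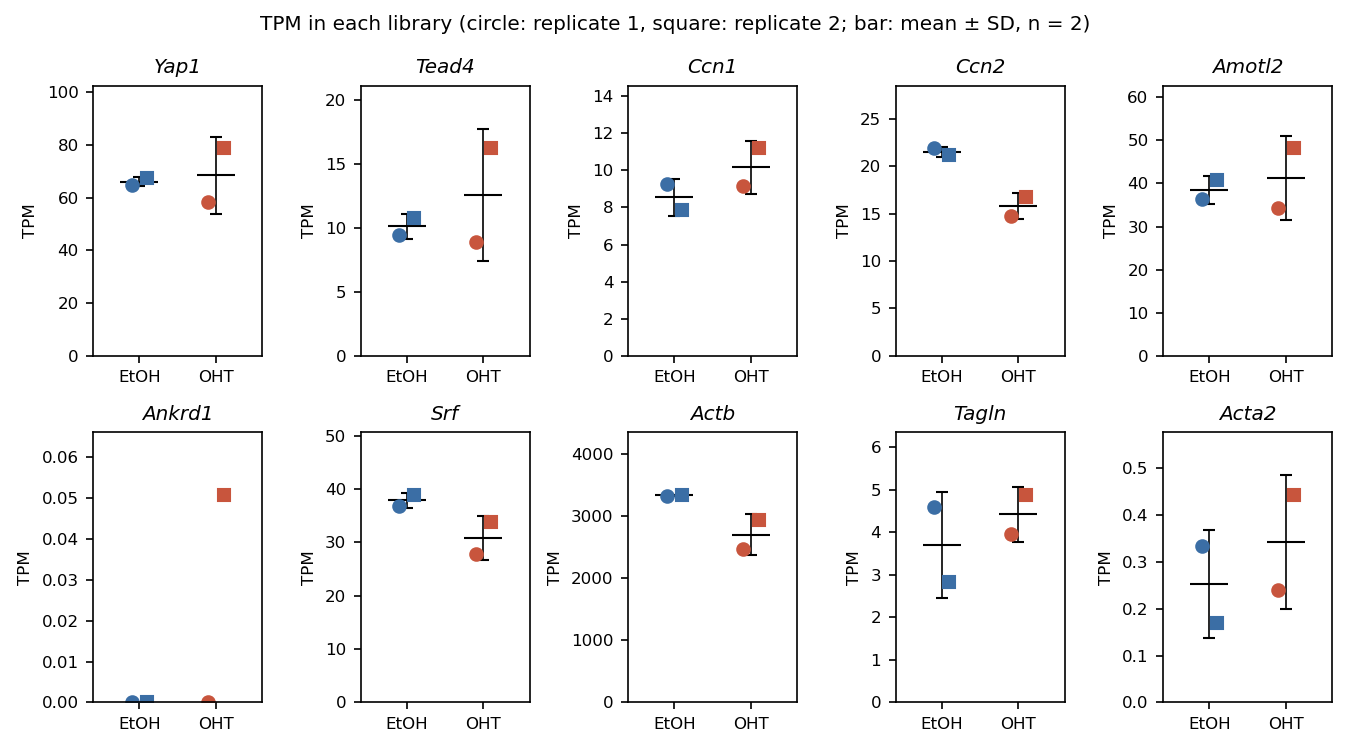
TPM of the 10 genes in each library, with a separate linear axis from 0 for each gene. Circles are replicate 1 and squares replicate 2, and bars give mean ± SD (n = 2) except for Ankrd1, which is listed at 0 in 3 libraries. Both OHT libraries sit below both EtOH libraries for Ccn2, Srf and Actb, and the groups overlap for the others.

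Yap1 and Tead4, the regulators on the YAP side of the set, did not separate the groups. Yap1 (ENSMUSG00000053110.14, GRCm38 chromosome 9, 7931999 to 8004596, minus strand) stood at 64.8 and 67.3 TPM with EtOH against 58.2 and 78.7 TPM with OHT. The OHT libraries lay on either side of the EtOH pair, and the log2 difference was 0.03 (SE 0.16, limma adjusted p = 0.963). The 95% interval of that difference, -0.36 to 0.43, does not exclude a change of either sign. Tead4 (chromosome 6, 128224288 to 128300823, minus strand) read 9.42 and 10.8 TPM with EtOH against 8.89 and 16.2 TPM with OHT. It was the member whose OHT libraries lay farthest apart, by 0.80 on the log2 scale, with 1 library below and 1 above the EtOH pair. The log2 difference was 0.24 (SE 0.28, adjusted p = 0.831). It stood at 0.63 without OHT replicate 1 and turned to -0.16 without OHT replicate 2. Yap1 likewise stood at 0.25 without OHT replicate 1 and turned to -0.18 without OHT replicate 2. Such fits assume that the lone OHT library varies like the EtOH pair, so no p-value from them is given. Trophoblast markers are given because Tead4 acts in that lineage. Their 7 genes summed to 59.9 and 60.3 TPM with EtOH against 67.2 and 72.5 TPM with OHT. Tfap2c was the largest part (31.4 to 36.6 TPM), and the defining member Cdx2 stood between 0.0400 and 0.267 TPM. Of the 5 tested, the OHT pair lay wholly above for 3, against 23.1% of all genes tested, and wholly below for none. None passed, and the highest was Krt18 (log2 difference 0.49, SE 0.16, limma adjusted p = 0.392). The part of trophoblast cells in the value of Tead4 was not tested.

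Tead4 is a minor part of the TEAD transcripts in these cells. By TPM, which is corrected for length and so can be compared between genes, Tead4 made up 12.7% and 13.1% of the Tead1 to Tead4 sum with EtOH and 11.5% and 14.4% with OHT. Tead2, a TEAD factor of the early embryo, was the most abundant, at 57.9% and 56.5% with EtOH and 66.7% and 51.1% with OHT. Tead1 gave 27.4% and 28.1% with EtOH and 19.9% and 32.3% with OHT, and Tead3 about 2% in every library (1.92% to 2.33%). The OHT shares of Tead1, Tead2 and Tead4 lay on either side of the EtOH shares. In its own TPM, Tead2 read 43.0 and 46.5 with EtOH and 51.6 and 57.4 with OHT, higher in both OHT libraries without passing (log2 difference 0.28, SE 0.12, adjusted p = 0.509).

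Wwtr1, which encodes TAZ, the paralogue of YAP, read 8.08 and 8.75 TPM with EtOH against 10.4 and 13.2 TPM with OHT. Its log2 difference of 0.43 (SE 0.19) did not pass (adjusted p = 0.497). Yap1 transcripts thus outnumbered those of Wwtr1 by 8.02 and 7.70 times with EtOH and by 5.60 and 5.97 times with OHT. That ratio is taken inside each library, so scaling a library leaves it unchanged. A trend with transcript length, as between these libraries, need not cancel in it, and no length correction was applied to it. The Yap1 to Wwtr1 ratio was chosen after the values were seen and was not tested.

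Among the other Hippo kinases, adaptors and TEAD cofactors, 22 of 24 were tested and none passed, also not at an unadjusted p under 0.05. The OHT pair lay wholly above the EtOH pair for 4 and wholly below it for 1, against 23.1% and 19.4% of all genes tested. The median log2 difference was 0.10 (-0.14 in OHT replicate 1, 0.38 in OHT replicate 2). The largest was Amotl1, an angiomotin that holds YAP at junctions, with 3.39 and 4.26 TPM with EtOH against 4.56 and 9.42 TPM with OHT (0.66, SE 0.32, adjusted p = 0.543). The lowest was Vgll3, a TEAD-binding cofactor, with 3.66 and 3.20 TPM with EtOH against 2.58 and 2.75 TPM with OHT (-0.27, SE 0.17, adjusted p = 0.660).

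Upstream sequences are shown for the target genes whose window before the start holds the TEAD motif. RefSeq (GRCm38.p6) gave the 250 bases before the start for 6 of the 10 members, namely Ccn1, Ankrd1, Amotl2, Yap1, Acta2 and Srf. The letters searched were GGAATG and CATTCC, its form on the other strand. They stand in 5 of the 6, all but Srf, and in 12.6% of the 32851 windows of the same length in the RefSeq table. A match describes letters and not a bound site, and genes known as targets were the ones chosen. The Ccn1 window is shown whole, and 30 bases around each match in Ankrd1 and Amotl2, since the Ankrd1 window lies wholly and the Amotl2 window partly in annotated GENCODE exons. The sequences run 5′ to 3′ on the gene's strand, and capitals mark the motif:
Ccn1, chr3:145649986-145650235, minus strand: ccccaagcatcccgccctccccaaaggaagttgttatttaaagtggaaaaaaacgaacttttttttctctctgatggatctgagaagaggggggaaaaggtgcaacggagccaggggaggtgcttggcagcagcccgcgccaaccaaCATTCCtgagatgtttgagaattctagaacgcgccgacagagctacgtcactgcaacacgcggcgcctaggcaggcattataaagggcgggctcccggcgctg
Ankrd1, chr19:36120037-36120066, minus strand: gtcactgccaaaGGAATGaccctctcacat
Ankrd1, chr19:36119950-36119979, minus strand: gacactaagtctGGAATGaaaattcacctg
Amotl2, chr9:102717727-102717756, plus strand: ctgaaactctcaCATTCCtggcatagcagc
The match begins 103 bases before the RefSeq start in Ccn1, 65 bases before it in Amotl2, and 210 and 123 bases before it in Ankrd1.

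Ccn2 and Ccn1, which encode related secreted matricellular proteins and are widely used YAP reporters, lay on opposite sides of 0. Ccn2 (ENSMUSG00000019997.12, chromosome 10, 24595442 to 24598683, plus strand) read 21.9 and 21.1 TPM with EtOH against 14.8 and 16.8 TPM with OHT. Both OHT libraries were lower, at 0.734 times the EtOH mean (21.5 ± 0.528 TPM with EtOH, 15.8 ± 1.39 TPM with OHT; SD, n = 2 each). The log2 difference of -0.43 (SE 0.15, 95% interval -0.79 to -0.06) had a limma adjusted p of 0.425 and did not pass. It was -0.51 without OHT replicate 2 and -0.34 without OHT replicate 1. Ccn1 (ENSMUSG00000028195.5, chromosome 3, 145646976 to 145649981, minus strand) read 9.26 and 7.84 TPM with EtOH against 9.17 and 11.2 TPM with OHT. Its groups overlapped, as OHT replicate 1 lay below EtOH replicate 1, and the log2 difference was 0.23 (SE 0.19, adjusted p = 0.745).

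Inside each library the Ccn1 to Ccn2 ratio was 0.423 and 0.371 with EtOH against 0.619 and 0.667 with OHT. The 2 groups did not overlap, and the OHT mean was 1.62 times the EtOH mean (0.397 ± 0.0369 with EtOH, 0.643 ± 0.0339 with OHT; SD, n = 2 each). Like the Yap1 to Wwtr1 ratio, it was chosen after the values were seen and was not tested. The transcripts are of like length (median over annotated transcripts 2019 bases for Ccn1, 2444 for Ccn2). After a correction of each library for transcript length and GC content, the log2 differences were 0.19 for Ccn1 and -0.44 for Ccn2.

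Amotl2, an angiomotin gene that YAP induces and whose product in turn restrains YAP, read 36.3 and 40.9 TPM with EtOH against 34.3 and 48.1 TPM with OHT (chromosome 9, 102716672 to 102733418, plus strand). The OHT libraries lay on either side of the EtOH pair (log2 difference 0.08, SE 0.19, adjusted p = 0.926), and the sign turned after the correction for length and GC content (-0.070) and without EtOH replicate 1 (-0.0074) or OHT replicate 2 (-0.16). Amotl2 and Yap1 have the longest transcripts of the set, with medians of 4275 and 4143 bases. Between the OHT libraries they differed by 0.48 and 0.43 on the log2 scale. Tead4, with a shorter median of 1909 bases but a longest transcript of 3076 bases, differed by 0.80. Ankrd1, a muscle ankyrin repeat gene used as a YAP reporter in other cells (chromosome 19, 36111961 to 36120099, minus strand), was listed at 0 in 3 libraries and at 0.0508 TPM in OHT replicate 2. Below the minimum mean of 1 TPM, it entered only the limma fit without a filter on low values, where it did not pass (adjusted p = 0.849). The 4 targets together gave 67.4 and 69.9 TPM with EtOH against 58.3 and 76.2 TPM with OHT, again on either side. Amotl2 made up the largest part of that sum in each library, while Ccn2 alone was lower in both OHT libraries.

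**Figure D2:**
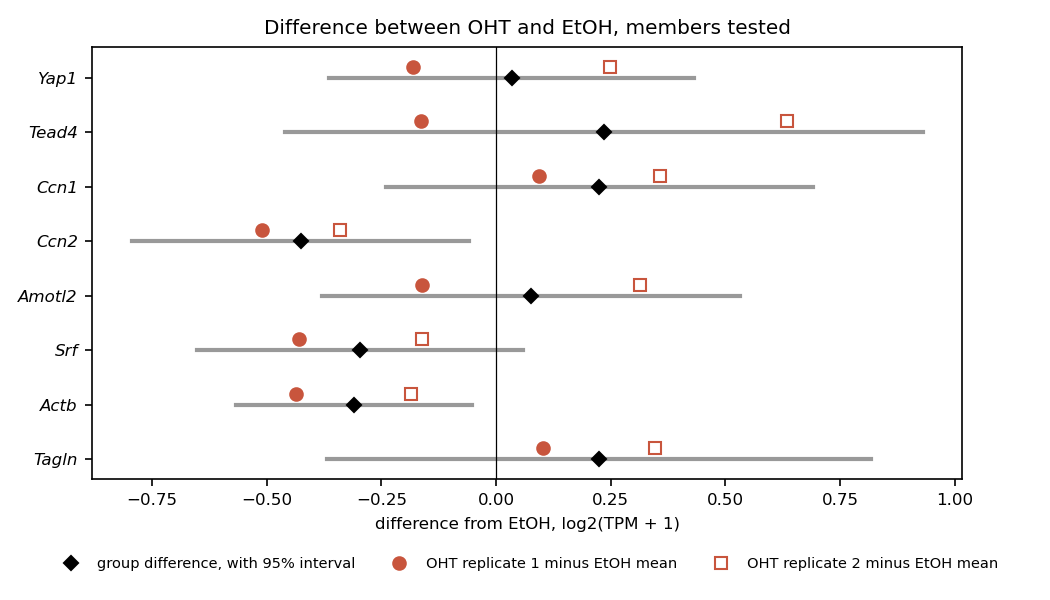
Difference from EtOH on the log2(TPM + 1) scale for the 8 genes tested. Diamonds give the group difference with limma's 95% interval as a grey line, filled circles OHT replicate 1 and open squares OHT replicate 2, each minus the EtOH mean. Both OHT libraries lie left of 0 for Ccn2, Srf and Actb, and OHT replicate 2 lies to the right of OHT replicate 1 for every gene shown.

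Other genes of a conserved 22-gene YAP and TAZ target signature, leaving out the 4 members on it, had a median above that of all genes, and none of them passed. Of 18, 13 were tested. The OHT pair lay wholly above the EtOH pair for 5 and wholly below it for none, against 23.1% and 19.4% of all genes tested. Their median log2 difference was 0.32, with 0.04 in OHT replicate 1 and 0.53 in OHT replicate 2. Myof, a membrane repair gene and the only one of the 13 with an unadjusted p under 0.05, read 31.5 and 30.4 TPM with EtOH against 37.9 and 45.1 TPM with OHT (0.41, SE 0.14, adjusted p = 0.410). Crim1, a transmembrane regulator of growth factors, read 0.771 and 0.973 TPM with EtOH against 1.21 and 1.85 TPM with OHT (0.42, SE 0.19, adjusted p = 0.521). Nt5e and Arhgef17 followed at 0.38 and 0.40 (adjusted p = 0.620 and 0.623). Gadd45a, a stress-induced gene on the same signature, had the lowest value (-0.03).

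Srf was lower in both OHT libraries. The gene (ENSMUSG00000015605.7, chromosome 17, 46548329 to 46556175, minus strand) read 36.9 and 38.9 TPM with EtOH against 27.9 and 33.8 TPM with OHT. The ratio of the means was 0.813 (37.9 ± 1.43 TPM with EtOH, 30.8 ± 4.19 TPM with OHT; SD, n = 2 each), and the log2 difference of -0.30 (SE 0.15, 95% interval -0.65 to 0.06) did not pass (adjusted p = 0.550). It stood at -0.43 without OHT replicate 2 and at -0.16 without OHT replicate 1. SRF is known to bind its own promoter, and the sequence is shown because it holds the CArG box in 2 places, in capitals, beginning 82 and 62 bases before the RefSeq start. Bases inside the GENCODE first exon are left off:
Srf, chr17:46556176-46556412, minus strand: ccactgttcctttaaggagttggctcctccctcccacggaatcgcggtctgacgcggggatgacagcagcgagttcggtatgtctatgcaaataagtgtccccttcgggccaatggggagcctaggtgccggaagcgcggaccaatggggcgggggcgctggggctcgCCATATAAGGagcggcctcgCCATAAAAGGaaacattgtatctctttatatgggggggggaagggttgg
The CArG box stands in 1.47% of the 32851 windows and, among the 6 members with a window, in Srf alone. Of the 250 bases of the Acta2 window, 217 lie in annotated GENCODE exons. Sequence before the GENCODE start of Acta2 was thus hardly searched.

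Actb, the gene of cytoplasmic beta-actin and often a reference gene, was by far the most abundant member. It (ENSMUSG00000029580.15, chromosome 5, 142903115 to 142906754, minus strand) read 3324 and 3338 TPM with EtOH against 2463 and 2931 TPM with OHT. By level it ranked 41st and 39th of all genes with EtOH and 83rd and 47th with OHT. The OHT mean was 0.810 times the EtOH mean (3331 ± 9.39 TPM with EtOH, 2697 ± 331 TPM with OHT; SD, n = 2 each). The log2 difference of -0.31 (SE 0.11, 95% interval -0.57 to -0.05) had an adjusted p of 0.406 and did not pass. It stayed below 0 in all 15 alternative settings, from -0.44 without OHT replicate 2 to -0.18 without OHT replicate 1. In every alternative that kept all 4 libraries it did not pass. A fit with a lone OHT library assumes that this library varies like the EtOH pair.

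The level of Actb relative to that of Srf overlapped between the groups, at 90.1 and 85.8 with EtOH and 88.4 and 86.8 with OHT. The ratio was chosen after the values were seen. Actg1, the gene of the other cytoplasmic actin, was likewise lower in both OHT libraries, with 3129 and 3086 TPM with EtOH against 2304 and 2458 TPM with OHT (-0.38, SE 0.08, adjusted p = 0.255). Its transcript is 87.8% identical to that of Actb over 1186 bases, so reads could in part be split between them. A transcript of Lrrc58, a gene read at 10.5 to 17.3 TPM, is 90.6% identical to that of Actb over 1347 bases. No gene of the table reached 95% identity over 50% of a transcript with any member. The 6 actin genes together gave 6454 and 6424 TPM with EtOH against 4767 and 5390 TPM with OHT. Actb made up 51.5% and 52.0% of that sum with EtOH and 51.7% and 54.4% with OHT.

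Tagln and Acta2, the smooth muscle genes of the set, were read at low levels. Tagln, which encodes the actin-binding protein transgelin (chromosome 9, 45929619 to 45936058, minus strand), stood at 4.59 and 2.82 TPM with EtOH against 3.96 and 4.88 TPM with OHT. The EtOH libraries differed more from each other than the group means did, and the log2 difference of 0.22 (SE 0.24, adjusted p = 0.808) turned to -0.050 without EtOH replicate 2. Acta2, the gene of smooth muscle alpha-actin (chromosome 19, 34241090 to 34255590, minus strand), read 0.335 and 0.171 TPM with EtOH against 0.241 and 0.444 TPM with OHT. Its mean lay below the minimum of 1 TPM, and in the limma fit without a filter on low values its log2 difference of 0.099 (SE 0.11) did not pass (adjusted p = 0.819). It made up under 0.01% of actin TPM in every library (0.00266% to 0.00823%). Other markers of smooth muscle or myofibroblasts summed over 7 genes to 17.9 and 17.4 TPM with EtOH against 18.6 and 25.6 TPM with OHT, of which most was Smtn. Of these 7 genes, 3 (Cnn1, Actg2 and Myocd) also stand on the SRF lists described here. Myh11, their defining myosin, stood between 0.0809 and 0.146 TPM. Markers of fibroblasts or feeder cells summed over 10 genes to 7.57 and 6.42 TPM with EtOH against 8.97 and 13.1 TPM with OHT, mostly Thy1, while Postn and Twist2 were listed at 0 throughout. Cardiac or skeletal muscle markers summed over 7 genes to 6.13 and 5.27 TPM with EtOH against 8.38 and 6.56 TPM with OHT. Primitive or parietal endoderm markers, 8 genes led by the matrix gene Sparc, summed to 319 and 334 TPM with EtOH against 327 and 389 TPM with OHT. The part of such cells in the values of Tagln and Acta2 was not tested, and in bulk RNA fewer cells of a type and less RNA per cell cannot be told apart.

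The other cytoskeletal SRF targets lay on both sides of 0. Of 20, 16 were tested and none passed, with a median log2 difference of -0.02. At an unadjusted p under 0.05 stood 5 lower and 1 higher gene, against 4.46% of all genes tested lower and 10.5% in either direction. The libraries lay apart for 6 lower and 4 higher, against 19.4% and 23.1% of all genes tested. Lower were Cnn2, a calponin (38.6 and 35.7 TPM with EtOH, 20.3 and 24.4 TPM with OHT; -0.71, SE 0.15, adjusted p = 0.252), Actg1, and the tropomyosin gene Tpm1 (96.0 and 94.0 TPM with EtOH, 68.8 and 71.5 TPM with OHT; -0.43, SE 0.10, adjusted p = 0.270). The myosin light chain gene Myl9 (-0.67) and the cofilin gene Cfl1 (-0.24), named after their values were seen, complete the 5. Higher was Cald1, encoding the actin-binding caldesmon, with 16.1 and 15.6 TPM with EtOH against 24.3 and 33.6 TPM with OHT (0.81, SE 0.19, adjusted p = 0.267).

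**Figure D3:**
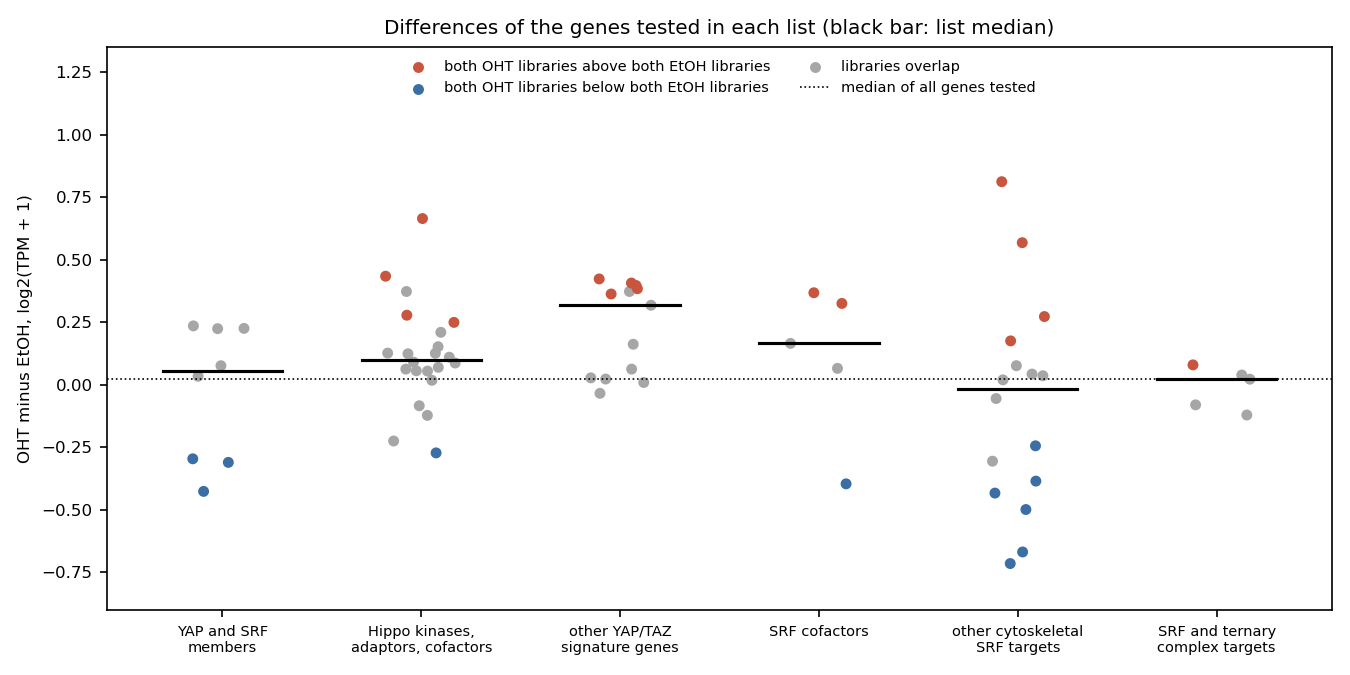
Difference between OHT and EtOH on the log2(TPM + 1) scale for each gene tested in 6 lists. Red and blue points are genes whose OHT libraries lie both above or both below the EtOH libraries, grey points overlap, black bars are list medians and the dotted line is the median of all genes tested (0.02). The cytoskeletal SRF targets spread widest, from -0.71 (Cnn2) to 0.81 (Cald1).

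The cofactors through which SRF acts lay on both sides of 0. Of 6, 5 were tested and none passed (median log2 difference 0.17). Elk1, a ternary complex factor, read 17.2 and 19.0 TPM with EtOH against 20.2 and 27.6 TPM with OHT (0.37, SE 0.19, adjusted p = 0.564), while its relative Elk4 read 4.36 and 4.79 TPM with EtOH against 2.38 and 4.31 TPM with OHT (-0.40, SE 0.26, adjusted p = 0.661). Elk3 stood at 0.33 (adjusted p = 0.649), and Mrtfa, the actin-sensing cofactor, at 0.17 (adjusted p = 0.850). Myocd, the muscle cofactor myocardin, was listed at 0 in both OHT libraries and at 0.0232 and 0.0259 TPM with EtOH.

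Serum-induced SRF targets that depend on ternary complex factors lay within a narrow range around 0. Of 8, 5 were tested, the log2 differences ran from -0.12 (Fos) to 0.08 (Junb), and their smallest adjusted p was 0.857. Junb, an AP-1 subunit gene, read 47.7 and 47.4 TPM with EtOH against 50.3 and 50.2 TPM with OHT. Egr1 read 1.15 and 1.38 TPM with EtOH against 1.08 and 1.20 TPM with OHT, and Mcl1, an anti-apoptotic gene, had a log2 difference of 0.04.

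**Figure D4:**
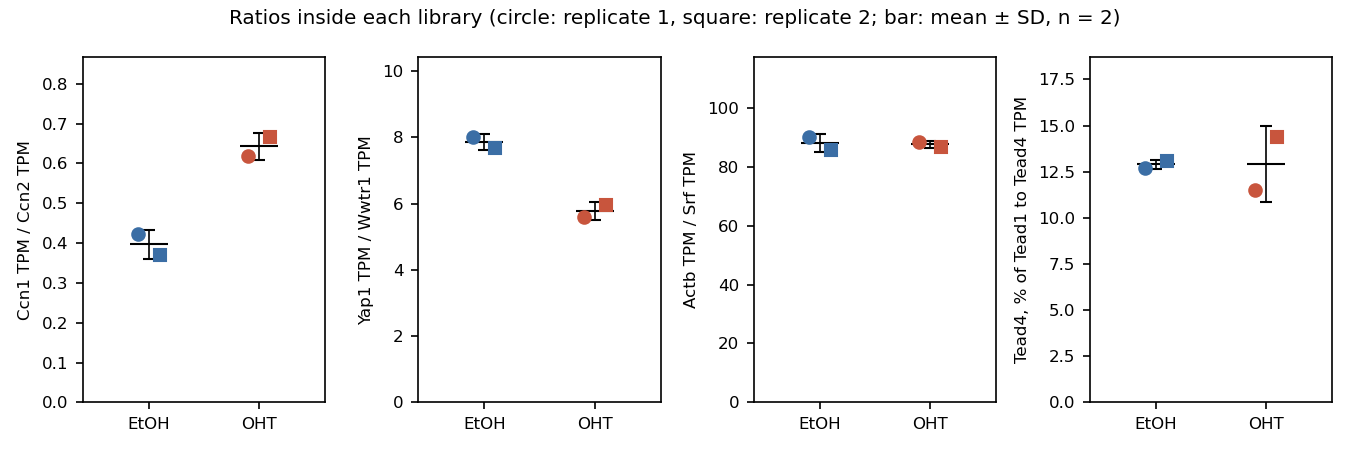
Ratios formed inside each library from TPM, with linear axes from 0: Ccn1 to Ccn2, Yap1 to Wwtr1, Actb to Srf, and Tead4 as a percent of Tead1 to Tead4. Circles are replicate 1, squares replicate 2, and bars mean ± SD (n = 2). The first and second ratios do not overlap between EtOH and OHT, while the Actb to Srf ratio and the Tead4 share do.

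In order of level with EtOH, the members ran from Actb through Yap1, Amotl2 and Srf, Ccn2, Tead4, Ccn1, Tagln and Acta2 to Ankrd1. Amotl2 and Srf could not be ordered, since their EtOH libraries overlapped (36.3 and 40.9 against 36.9 and 38.9 TPM), and Tead4 lay only just above Ccn1 (lowest 9.42 against highest 9.26 TPM). With OHT, Amotl2 lay above Srf in both libraries (34.3 and 48.1 against 27.9 and 33.8 TPM), and Ccn1 and Tead4 overlapped.

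**Figure D5:**
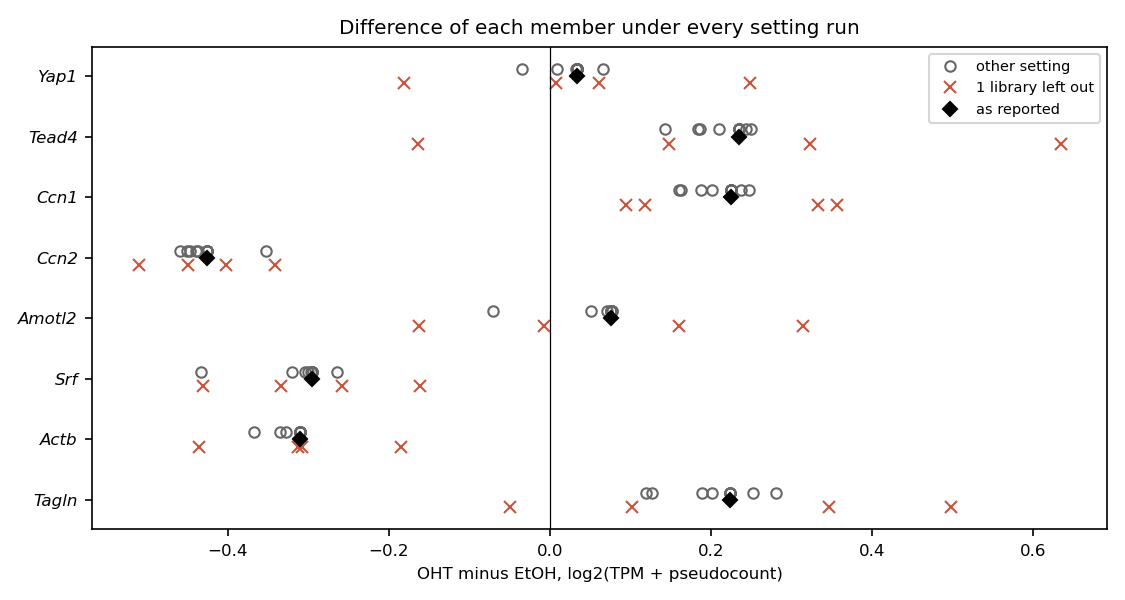
Log2 difference of each of the 8 genes under every setting run. Diamonds are the values as reported, grey circles other settings and red crosses fits with 1 library left out. Ccn2, Srf and Actb stay left of 0 and Ccn1 right of 0 throughout, while Yap1, Tead4, Amotl2 and Tagln cross 0 in at least 1 fit.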

How the data were processed

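The authors deposited TPM for 22266 genes. Per the submitters' processing notes, their steps used Trim Galore and Salmon with mouse build GRCm38 (mm10). For their versions and for the annotation release, the sources used here say nothing. Libraries were poly(A) selected, per the labels' protocols. Of the value columns, 2 match no sample used here and were not used. Members and lists were chosen with earlier results of these data known.

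Genes averaging 1 TPM or more were fitted as log2(TPM + 1), a scale that understates changes of low genes, with limma 3.58.1 in R 4.3.3 (mean-variance trend, two-sided, all 4 libraries, 2 residual and 4.01 prior degrees of freedom). Benjamini-Hochberg adjustment ran over all 12029 genes. Intervals are limma's 95% intervals, unadjusted. The fit was tested on simulated data with the same spread in both groups and no length trend, unlike these libraries.

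Named were all members and, per list, up to 4 genes with the smallest p; 1 list is not reported here. Coordinates and lengths come from GENCODE release M21, matched by identifier without version for 22213 genes. Similar transcripts were sought with blastn 2.17.0. Alternatives covered pseudocounts, filters, scaling, moderation, a replicate block, a correction of each library for length and GC content by natural splines, and leaving out each library.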

Additional observations from a re-analysis of the deposited data

How the results depend on the processing

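Members past the threshold numbered 0 in every setting that kept all 4 libraries. Fits with 1 library left out leave a group with a lone library, so only their log2 differences are given. Over all genes, 5 passed as reported. The count was 0 without a filter on low values (1838 with an unadjusted p under 0.05 by limma), 3 each with median of ratios scaling, quantile normalization and limma without a trend, 159 (92 higher, 67 lower) after correction for length and GC content, and 34 to 2957 with 1 library left out. The cause was not tested. The replicate numbers have no stated pairing, and a fit with the replicate block called 474 genes (261 higher, 213 lower) but none of the members. The correction for length and GC content turned Yap1 to -0.035 and Amotl2 to -0.070. With 1 library left out, log2 differences ran from -0.16 to 0.63 for Tead4, from -0.050 to 0.50 for Tagln, from -0.16 to 0.31 for Amotl2 and from -0.18 to 0.25 for Yap1. The median of the members ranged from -0.17 to 0.28 when 1 library was left out and was -0.053 after correction for length and GC content. Ccn1, Ccn2, Srf and Actb kept their sign in all 15 alternatives. Tagln has no value at a minimum of 5 TPM. A sum over near-identical copies was not run because none was found. Unknown depth limits what can be said of Ankrd1, Acta2 and Tagln.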
